A study of Mus musculus with 12 samples.

Results

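The genes described here encode acute-phase and secreted inflammatory proteins, and their RNA abundance was compared between drug-treated mouse prostate organoids derived from sorted basal cells. The list had 10 genes, Hp, Lcn2, Cp, Saa1, Saa2, Saa3, C3, Cfb, Orm1 and Spp1, and was matched by gene name to a table of 24674 genes, in which 8 had a row. Saa1 and Saa2 are not analysed here. The list was selected on earlier results of these same samples, in which Hp was among the genes most reduced by UK5099, Spp1 among those most reduced by butyrate, and an acute inflammation list was lower, so differences from vehicle are descriptions here, with calls counted but no p-value given and none taken as support. The lowest member to reach a group mean of 1 TPM was Orm1, at 1.07 TPM with butyrate, and the highest member that did not was Cfb, at 0.328 TPM in vehicle.

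Organoids are small 3-dimensional cultures formed by epithelial cells in a gel. Cells of every group came from wild-type C57BL/6 mice, and the study's methods describe basal cells sorted from adult male mice by high CD49f and EpCAM and by lack of blood and endothelial surface markers. The 4 groups were Vehicle, UK5099, Butyrate and UK5099 + Butyrate (the combination), with 3 replicates each. UK5099 inhibits the carrier through which pyruvate enters the mitochondrion, and butyrate is an inhibitor of histone deacetylases, the enzymes that remove acetyl groups from histones. The labels give no dose or duration, and nothing states whether replicates came from separate mice, so the spread between replicates may be technical. In whole organoids, fewer cells of a type and less RNA per cell cannot be told apart.

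Acute-phase proteins are secreted in large amounts during inflammation, mostly by the liver and also by epithelia. Their genes respond to interleukin 6 through STAT3, to interleukin 1 and tumour necrosis factor through NF-kB, and to C/EBP factors. Haptoglobin (Hp) captures free haemoglobin, lipocalin 2 (Lcn2) binds bacterial iron carriers, ceruloplasmin (Cp) carries copper and oxidizes iron, C3 is the central protein of complement, factor B (Cfb) drives its alternative pathway, serum amyloid A proteins bind lipids, orosomucoid (Orm1) carries small molecules in plasma, and osteopontin (Spp1) is a ligand of integrins and CD44.

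Promoters of 4 of the 5 best expressed members are shown so that their motif letters can be read beside the levels that follow. The RefSeq promoter table (build GRCm38.p6) had entries for 7 of the 10 listed genes, and the 250 bases before the start were read 5' to 3' on the gene's strand. Capitals mark matches on either strand to the C/EBP letters TTGCNNAA, the STAT letters TTCNNNGAA, the AP-1 letters TGANTCA or an NF-kB motif. The first start listed for Spp1 and the second listed for Cp are printed, and which start the organoids used is not known.
Lcn2, chr2:32387740-32387989, minus strand: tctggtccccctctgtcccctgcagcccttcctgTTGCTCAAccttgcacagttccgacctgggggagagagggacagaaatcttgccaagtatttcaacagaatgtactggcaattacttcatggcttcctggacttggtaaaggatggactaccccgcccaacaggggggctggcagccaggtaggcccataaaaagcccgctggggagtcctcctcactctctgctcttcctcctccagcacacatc
Cp, chr3:19956999-19957248, plus strand: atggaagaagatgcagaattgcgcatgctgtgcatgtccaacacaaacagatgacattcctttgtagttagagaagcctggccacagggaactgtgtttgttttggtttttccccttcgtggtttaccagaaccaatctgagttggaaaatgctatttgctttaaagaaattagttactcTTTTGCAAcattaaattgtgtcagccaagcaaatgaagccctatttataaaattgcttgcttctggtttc
C3, chr17:57228137-57228386, minus strand: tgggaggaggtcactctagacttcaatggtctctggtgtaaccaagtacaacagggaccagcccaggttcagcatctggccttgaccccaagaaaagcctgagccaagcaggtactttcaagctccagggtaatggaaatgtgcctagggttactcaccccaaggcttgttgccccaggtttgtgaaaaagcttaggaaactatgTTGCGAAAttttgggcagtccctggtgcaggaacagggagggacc
Spp1, chr5:104434861-104435110, plus strand: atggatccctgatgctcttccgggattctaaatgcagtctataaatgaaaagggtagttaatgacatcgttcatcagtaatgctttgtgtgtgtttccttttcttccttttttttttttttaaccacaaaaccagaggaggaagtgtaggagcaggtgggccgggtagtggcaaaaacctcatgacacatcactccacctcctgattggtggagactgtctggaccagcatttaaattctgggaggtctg
A match to the C/EBP letters began 216 bases before the start of Lcn2, 70 bases before that of Cp and 45 bases before that of C3, and no motif matched in the Spp1 window. Among all 32851 promoters of this length, 9.56% held the C/EBP letters, 7.02% the STAT letters, 6.75% the AP-1 letters and 3.90% the NF-kB motif. The other listed start of Cp had an AP-1 match beginning 177 bases before it, and that of Spp1 a C/EBP match beginning 156 bases before it. No 2 motif matches overlapped, and no printed window held a STAT or NF-kB match. A match describes the letters only and says nothing of binding.

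Values were in TPM, which here are fragments divided by the genomic span of a gene with its introns, scaled so that each sample sums to 1000000. Depth was 33251843 to 43498958 fragments per sample. The first UK5099 and the first combination sample stood apart from their replicates, with a chi-square per degree of freedom of 6.76 to 7.21 against 1.98 to 2.76 for all other replicate pairs. Differences are coefficients of a limma fit on log2(TPM + 1), and a gene is called when its Benjamini-Hochberg adjusted p-value over all genes is under 0.01 and its coefficient is beyond 1 in size. Over 13345 genes whose mean reached 1 TPM, coefficients had a median of -0.12 under UK5099, -0.30 under butyrate and -0.41 under both, so these are the points from which a member's difference from vehicle is read.

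The organoids expressed the epithelial genes in all groups. The summed level of 6 epithelial markers (Epcam, Cdh1, Krt5, Krt14, Krt8 and Krt18) ranged from 6562 to 6677 TPM in vehicle samples, 11289 to 11770 TPM under UK5099, 5632 to 5837 TPM under butyrate and 8710 to 8976 TPM under both. In the order vehicle, UK5099, butyrate and combination, the basal keratin Krt14 had means of 1676, 5047, 1391 and 3641 TPM and the basal keratin Krt5 1848, 4930, 3152 and 4514 TPM. The luminal keratins were lower in all treated groups, Krt8 with 916, 364, 275 and 119 TPM and Krt18 with 1468, 748, 613 and 359 TPM. The adhesion genes Epcam (536, 303, 170 and 95.4 TPM) and Cdh1 (172, 130, 101 and 84.9 TPM) were also lower, as were the members Hp, Lcn2, Cp, C3 and Spp1. Of 7 macrophage and leukocyte markers with a row, Ptprc and Cx3cr1 were at or near 0 in every group. The 7 together summed to 24.4 to 25.5 TPM in vehicle samples, 29.9 to 31.04 TPM under UK5099, 66.4 to 68.9 TPM under butyrate and 86.5 to 97.3 TPM under both. Nearly all of that was Cd68, a lysosomal protein gene that other cells also use, and without it the sums were 0.504 to 0.650 TPM in vehicle samples, 0.103 to 0.153 TPM under UK5099, 0.156 to 0.341 TPM under butyrate and 0.0834 to 0.176 TPM under both. Ly6g held most of that in vehicle, with means of 0.495, 0.0547, 0.219 and 0.0635 TPM in the same order, and so was lower where those members were lower. The 5 endothelial markers with a row summed to at most 0.0744 TPM, the 6 hepatocyte markers to at most 3.39 TPM. The 8 fibroblast markers summed to 2.33 to 2.98 TPM outside butyrate and 10.7 to 11.03 TPM with butyrate, where Dcn alone averaged 9.51 TPM. Their part in the results below was not tested.

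In vehicle, 5 of the 8 members were expressed above 1 TPM and 3 were near the limit of detection. Levels can be compared between genes only per length of mature RNA, so TPM was recomputed with the exonic length. On that scale, Cp was highest in vehicle at 337 ± 2.71 (SD, n = 3), followed by C3 at 172 ± 1.60, Lcn2 at 168 ± 2.34, Spp1 at 72.6 ± 3.16 and Hp at 10.03 ± 0.338. C3 and Lcn2, neighbours in that order, overlapped, with 170 to 173 for C3 and 167 to 171 for Lcn2. Cfb at 0.402 ± 0.130 and Orm1 at 0.331 ± 0.106 did not differ beyond their spread, and Saa3 was lowest at 0.0477 ± 0.0419. In the deposited TPM, by contrast, Lcn2 was first with 216 ± 3.79, since its span is only 1.38 times its exonic length, while that of Cp is 5.45 times and that of C3 4.70 times.

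**Figure D1:**
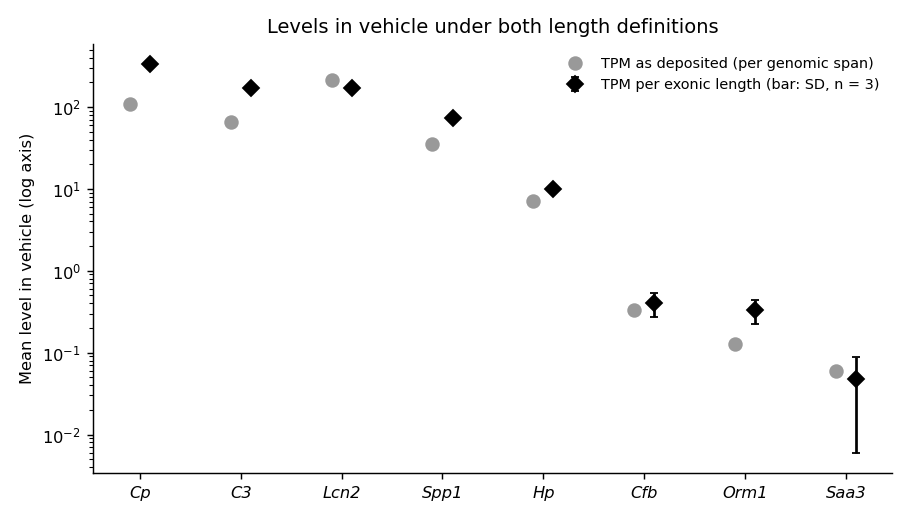
Mean level of each member in the 3 vehicle samples, on a log axis, as deposited (circles, divided by genomic span) and recomputed with exonic length (diamonds, with SD). Cp is first at 337 per exonic length, while Lcn2 is first at 216 TPM as deposited.

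For 5 members, Hp, Lcn2, Cp, C3 and Spp1, every treated sample was below every vehicle sample. Against vehicle, 4 members were called lower with UK5099 (Hp, Lcn2, Cp and Spp1), 3 with butyrate (Hp, Lcn2 and Spp1) and 4 with the combination (Hp, Lcn2, Cp and Spp1). The share of all genes called lower was 0.912% for UK5099, 2.42% for butyrate and 4.63% under both, and nothing is read from the members' counts because the list was picked on these differences. Complete separation below vehicle was common, at 35.1% of all genes for UK5099, 44.2% for butyrate and 49.1% under both. The median member coefficient was -1.18, -0.84 and -1.80 in the same order. No member was called higher in this fit.

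**Figure D2:**
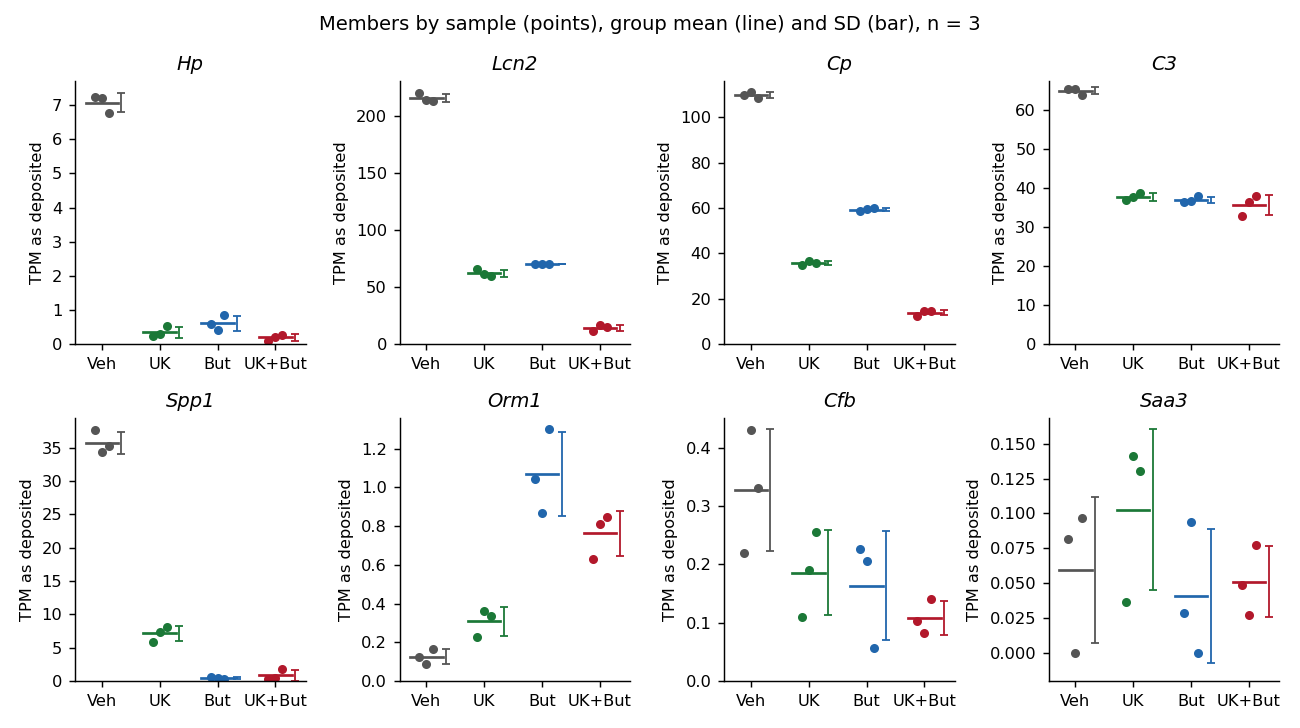
TPM as deposited of each of the 8 members, with a point per sample, a line at the mean and a bar for the SD, in vehicle (Veh), UK5099 (UK), butyrate (But) and the combination (UK+But), n = 3 each, with a separate axis per gene. All treated samples lie below all vehicle samples for Hp, Lcn2, Cp, C3 and Spp1, and above them for Orm1.

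Hp, on chromosome 8 from 110301760 to 110305804 in the table's coordinates, was close to lost under every treatment. The 3 vehicle samples had 7.24, 7.21 and 6.76 TPM, from 187 to 228 fragments each. UK5099 left 0.233, 0.290 and 0.538 TPM, butyrate 0.583, 0.402 and 0.847, and the combination 0.0897, 0.224 and 0.283. Those means were 5.01%, 8.64% and 2.82% of vehicle. The coefficients were -2.58, -2.33 and -2.75 (SE 0.113 each), which understate the change because the treated values lie below the pseudocount of 1, and a fit of the recovered fragments gave -4.24 (SE 0.324), -3.24 (SE 0.247) and -4.83 (SE 0.317). The combination stood below butyrate in every sample, with 4 to 12 fragments against 14 to 30, but by -0.42 with an adjusted p-value of 0.016 in limma it was not called. The fit of fragments gave -1.59 (SE 0.383) and called it, where it called 1.69% of all genes lower. Butyrate and UK5099 overlapped, and their difference of 0.25 had a 95% interval of -0.01 to 0.50. Both lay below the pseudocount, and the fit of fragments gave 0.99 (SE 0.293) for this difference without calling it.

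Lcn2, on chromosome 2 from 32274645 to 32278264, fell by steps. Vehicle samples had 221, 214 and 214 TPM. UK5099 samples had 65.7, 61.7 and 59.7 TPM and butyrate samples 70.2, 70.2 and 70.5 TPM, so that both drugs brought the gene to a similar level, at 28.8% and 32.5% of vehicle. The combination samples had 11.8, 16.7 and 14.8 TPM, or 6.68% of vehicle. The coefficients against vehicle were -1.78, -1.61 and -3.83 (SE 0.096 each). Butyrate and UK5099 did not overlap, yet the difference of 0.17 (95% interval -0.05 to 0.39) had an adjusted p-value of 0.190 in limma. It was 0.37 (SE 0.097) with median of ratios scaling, 0.41 (SE 0.046) in the fit of fragments and 0.21 (SE 0.046) without the first UK5099 and first combination samples.

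Cp, on chromosome 3 from 20011218 to 20063309, showed the same order with a clearer difference between the drugs. Vehicle samples had 110, 111 and 109 TPM. UK5099 samples had 34.7, 36.5 and 36.0 TPM, butyrate samples 58.5, 59.5 and 60.0 TPM, and combination samples 12.6, 14.6 and 14.6 TPM. No 2 groups overlapped, and the order was vehicle, butyrate, UK5099 and combination. The coefficients against vehicle were -1.59, -0.88 and -2.90 (SE 0.049 each), where the first was UK5099 and the second butyrate. The butyrate value was -0.53 with median of ratios scaling and -0.57 in the fit of fragments. Butyrate was higher than UK5099 by 0.72 (limma, adjusted p-value 1.8e-06), short of the coefficient limit. The gene's span overlaps Hps3 on the other strand, which had at most 1.60 TPM.

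C3, on chromosome 17 from 57510970 to 57535136, was lower under every treatment, to a similar TPM. Vehicle samples had 65.5, 65.5 and 64.0 TPM. UK5099 samples had 36.9, 37.7 and 38.9 TPM, butyrate samples 36.6, 36.7 and 38.0 TPM, and combination samples 33.0, 36.5 and 37.9 TPM. The 3 treated groups overlapped each other, at 58.2%, 57.0% and 55.1% of vehicle. The coefficients of -0.76, -0.79 and -0.85 (SE 0.045 each) did not reach the limit of 1, and with median of ratios scaling they were -0.61, -0.44 and -0.35. Between treated groups the intervals were narrow and included 0, at -0.15 to 0.05 for UK5099 added to butyrate, -0.18 to 0.02 for butyrate added to UK5099 and -0.13 to 0.07 for butyrate against UK5099. With median of ratios scaling these differences were instead positive, at 0.10, 0.26 and 0.17 (SE 0.038 each), and the fit of fragments gave 0.02, 0.22 and 0.20 (SE 0.032 each), so that with either one the groups given butyrate, alone or added, were above UK5099.

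Spp1, on chromosome 5 from 104582984 to 104588916, responded most to butyrate. Vehicle samples had 37.6, 34.4 and 35.3 TPM and UK5099 samples 5.82, 7.41 and 8.13 TPM. Butyrate samples had 0.542, 0.450 and 0.327 TPM, from 17 to 30 fragments. Combination samples had 0.290, 0.407 and 1.77 TPM, of which replicate 3 stood apart with 110 fragments against 19 and 24. The means were 19.9%, 1.23% and 2.30% of vehicle, and the combination's mean was 0.975% of vehicle without replicate 3. The coefficients were -2.19, -4.68 and -4.42 (SE 0.252 each). Butyrate values and most combination values lay below the pseudocount of 1, so their coefficients understate the change. The fit of fragments gave -2.25 (SE 0.118), -6.02 (SE 0.390) and -5.51 (SE 0.325). Gm42793, which overlaps the gene on the same strand, had at most 0.732 TPM.

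**Figure D3:**
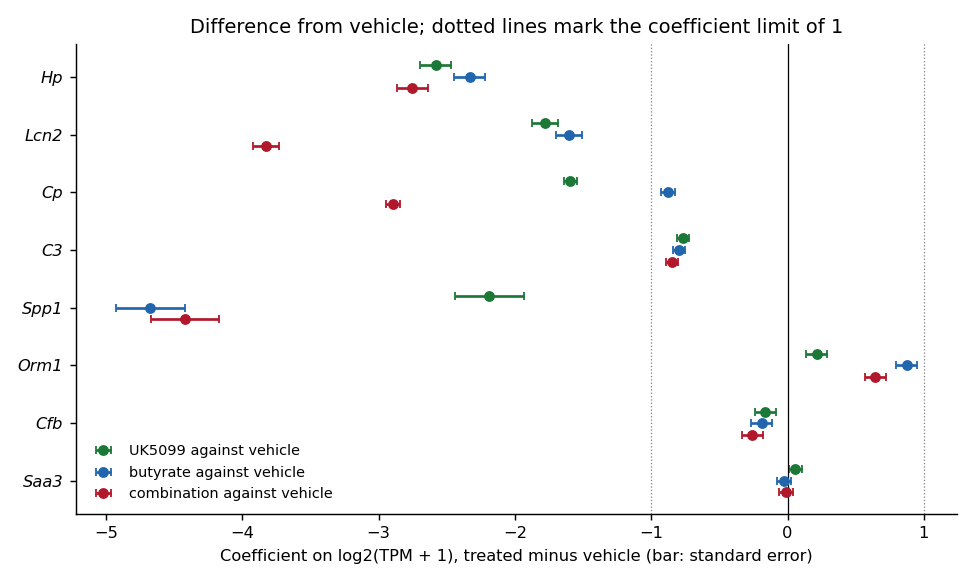
Coefficient on log2(TPM + 1) of each member against vehicle for UK5099, butyrate and the combination, with the standard error as a bar and dotted lines at the limit of 1 in size. Spp1 reaches -4.68 with butyrate and Lcn2 -3.83 with the combination. Orm1 is the member with all 3 values above 0, the smallest 0.21 (SE 0.079) with UK5099.

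The remaining members were scarce. Orm1, on chromosome 4 from 63262797 to 63266400, was higher in every treated sample than in every vehicle sample. How many of all genes lay wholly above vehicle was not counted, so nothing is read from that separation. Vehicle samples had 2 to 5 fragments (0.0865 to 0.166 TPM), UK5099 samples 6 to 10 (0.225 to 0.362 TPM), butyrate samples 27 to 41 (0.870 to 1.2998 TPM) and combination samples 25 to 32 (0.629 to 0.848 TPM). The groups did not overlap, and their order was vehicle, UK5099, combination and butyrate. The coefficients of 0.21, 0.87 and 0.64 (SE 0.079 each) were not called, while the fit of fragments gave 3.21 (SE 0.444) with butyrate and 2.79 (SE 0.490) with the combination and called both. That fit called 6.82% of all genes higher with butyrate and 7.80% with the combination. Butyrate was above UK5099 by 0.66 on log2(TPM + 1), with an adjusted p-value of 8.1e-05 in limma. The near-identical neighbour Orm3 had 0 to 0.186 TPM, and fragments shared between such copies may be misassigned.

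Cfb had 3 to 17 fragments in every sample. Its means were 0.328 ± 0.105 TPM in vehicle samples, 0.186 ± 0.0731 TPM under UK5099, 0.163 ± 0.0935 TPM under butyrate and 0.108 ± 0.0293 TPM under both (SD, n = 3). The combination was the one group that did not overlap vehicle, and its coefficient of -0.26 (SE 0.074) was not called. Saa3 had 0 to 4 fragments in each sample, and no difference between groups was detectable at this depth.

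The design allows a comparison of the combination with each single drug. Adding UK5099 to butyrate lowered 2 of the 8 members past both thresholds, where 0.357% of all genes were called lower. Lcn2 fell by 2.22 (SE 0.096, adjusted p-value 3.2e-07 in limma) and Cp fell by 2.02 (SE 0.049, adjusted p-value 1.0e-08 in limma), and all 3 combination samples were below all 3 butyrate samples. How many of all genes were separated between treated groups was not counted. Nothing is read from such separation here or for single members above. For Spp1 the difference was 0.25 (95% interval -0.32 to 0.82), which became -0.09 without replicate 3 of the combination. Adding butyrate to UK5099 lowered 3 members, where 1.15% of all genes were called lower. Lcn2 fell by 2.05 (SE 0.096, adjusted p-value 1.0e-07 in limma), Cp fell by 1.302 (SE 0.049, adjusted p-value 2.8e-08 in limma) and Spp1 fell by 2.23 (SE 0.252, adjusted p-value 4.0e-05 in limma). The Cp call was lost with median of ratios scaling, at -0.97. Butyrate against UK5099 called Spp1 alone among the members, with a difference of -2.49 (SE 0.252, adjusted p-value 2.6e-05 in limma), where 1.18% of all genes were called lower. Since the list was picked with earlier results known, these p-values are not independent evidence about it.

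The members split into 3 patterns when both drugs were given together. Lcn2 and Cp continued downwards, ending below the product of the single ratios. Lcn2 was at 6.68% of vehicle against a product of 9.38%, and Cp at 12.7% against 17.6%. C3 stayed near its single-drug TPM, at 55.1% against a product of 33.2%. Hp and Spp1 were already near 0 under a single drug and ended above the product, Hp at 2.82% against 0.433% and Spp1 at 2.30% against 0.245%.

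**Figure D4:**
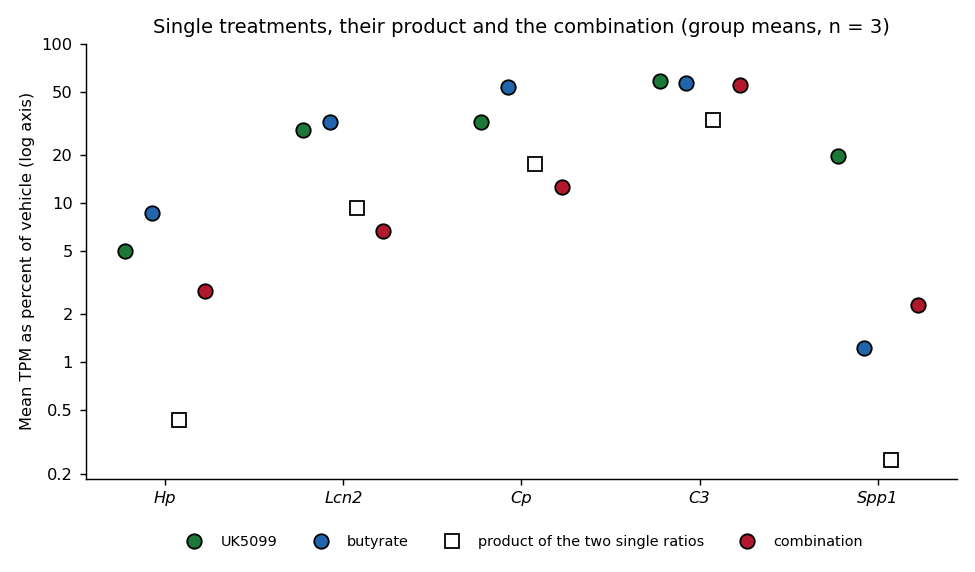
Mean TPM of 5 members as a percent of vehicle, on a log axis, for UK5099, butyrate and the combination (circles), with the product of the single ratios (open squares). The combination lies below the square for Lcn2 (6.68% against 9.38%) and Cp, and above it for C3 (55.1% against 33.2%), Hp and Spp1.

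On the log2 scale the interaction, the difference between the UK5099 effect with and without butyrate, was called for 2 of the 8 members, both positive, where 0.515% of all genes were called positive. They were Hp at 2.16 (SE 0.160) and Spp1 at 2.44 (SE 0.357). In both genes the sum of the single coefficients would lead below 0 on log2(TPM + 1), a level no gene can have, so that the interaction could not be smaller than 1.90 for Hp and 1.67 for Spp1. An adjusted p-value under 0.01 for the interaction, without the coefficient limit, was reached by 13.4% of all genes and by 4 members, Hp, Spp1, C3 and Cp. C3 had 0.71 (SE 0.063) and Cp -0.42 (SE 0.069), short of the coefficient limit. Lcn2 had -0.44 (SE 0.136), and -0.28 without the first UK5099 and the first combination sample.

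Some other genes had a pattern across the 12 samples much like that of a member, by Pearson's r of log2(TPM + 1) among 1559 protein-coding genes that varied. These r values describe 12 samples that share 4 group means. The closest to Hp was Rgs4 (r = 0.995), a regulator of G-protein signalling with means of 41.7, 0.710, 1.42 and 0.151 TPM in vehicle, UK5099, butyrate and combination. The other two for Hp were Myh14 (r = 0.992) and Oas1a (r = 0.990). Lcn2 was closest to Slc39a8 (r = 0.995), a zinc and manganese importer with 11.3, 3.22, 4.34 and 0.557 TPM, then Tfcp2l1 (r = 0.995) and Adcy6 (r = 0.994). Cp was closest to F3 (r = 0.996), which encodes tissue factor and had 72.5, 38.3, 49.5 and 23.8 TPM, then Pygb (r = 0.996) and Coro2a (r = 0.994). C3 was closest to Scara3 (r = 0.991), Rhoc (r = 0.990) and Slc4a4 (r = 0.990), and Spp1 to Pdgfb (r = 0.992), a growth factor with 51.8, 15.2, 3.78 and 4.13 TPM, Tpm1 (r = 0.992) and Agrn (r = 0.991). Orm1 was closest to Antxr1 (r = 0.971), Mgp (r = 0.961) and Scnn1b (r = 0.960). Among the members, Lcn2 and Cp had r = 0.979 and Hp and C3 r = 0.990, while Orm1 and Spp1 had r = -0.916.

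Of 25 other acute-phase protein genes, 14 had a row, and 5 of these averaged at least 1 TPM. With UK5099 1 was called lower, followed by 2 lower and 1 higher with butyrate, and 3 lower with the combination. In limma the share of all genes called lower was 0.912% for UK5099, 2.42% for butyrate and 4.63% under both. The share called higher was 0.928%, 1.13% and 1.79% in the same order. These shares also apply to the limma calls of the lists that follow. The fit of fragments called 3 of these 14 genes with UK5099, all lower, 4 with butyrate, of which 2 were higher, and 8 with the combination, of which 1 was higher. It called 6.82% of all genes higher with butyrate and 7.80% with both drugs. Its other shares against vehicle were not computed, so nothing is read from these counts. Cd14, which hands bacterial lipopolysaccharide to its receptor, was at 215 ± 5.01 TPM in vehicle and fell to 57.6 ± 4.64 TPM under UK5099, 30.7 ± 0.523 TPM under butyrate and 14.5 ± 1.03 TPM under both (SD, n = 3), with coefficients of -1.88, -2.77 and -3.80 (SE 0.060). Lrg1, a secreted glycoprotein, rose from 3.61 ± 0.643 to 19.3 ± 1.26 TPM with butyrate (coefficient 2.14, SE 0.158). Il1rn, the antagonist of interleukin 1, fell from 17.9 TPM to 7.72 TPM under butyrate and 6.56 TPM under both. The Il1rn calls were lost with median of ratios scaling. That scaling called Mt2 higher with butyrate, and Mt2 and Lrg1 higher with the combination. On the deposited TPM limma did not call Mt2, which had 3403, 5357, 5474 and 4792 TPM in vehicle, UK5099, butyrate and combination. Lrg1 was at 7.11 ± 1.59 TPM with the combination (SD, n = 3), also not called there. Ltf, the iron-binding lactotransferrin, fell from 5.61 to 1.27 TPM with the combination. The median coefficient of the 5 genes was -0.62, 0.21 and -1.32 in the order UK5099, butyrate and combination, beside -0.12, -0.30 and -0.41 for all genes of that level.

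The complement list was mostly silent. Of 29 genes, 19 had a row and 3 averaged at least 1 TPM. C1s1, a protease that starts the classical pathway, was the one gene called in the limma fit of the deposited TPM. Its calls were with butyrate and with both drugs. The fit of fragments called 5 genes with butyrate and 4 with the combination, all higher, where it called 6.82% and 7.80% of all genes higher. With UK5099 none was called in limma, where 5 genes had an unadjusted p-value under 0.05 and the fit of fragments called 2. Shares of all genes were not computed for either count, and nothing is read from them. C1s1 was at 1.33 ± 0.119 TPM in vehicle and rose to 8.48 ± 0.338 TPM under butyrate and 13.5 ± 0.784 TPM under both, with coefficients of 2.03 and 2.64 (SE 0.072). Its direction was opposite to that of C3 in the same samples.

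Receptors of the secreted proteins were measured in 16 of 20 genes, with 8 averaging at least 1 TPM. With butyrate, 4 were called lower, namely Itgb6 (7.46 to 1.96 TPM), Itgav (23.3 to 9.23 TPM), Itgb1 (192 to 87.8 TPM) and Cd44 (94.2 to 45.4 TPM), all receptors that osteopontin can use. With median of ratios scaling only Itgb6 of these was still called. Tlr2, a pattern receptor, was called lower with UK5099, from 4.95 to 1.53 TPM, and with the combination, at 1.12 TPM. The combination also lowered Itgb6 to 2.12 TPM and Itgav to 9.36 TPM. No receptor was called higher in limma, where 2 had a higher value at an unadjusted p-value under 0.05 with UK5099 and 0 with the other treatments. The share of all genes under that unadjusted limit was not computed. The fit of fragments called 1 receptor higher, with the combination, where it called 7.80% of all genes higher. With median of ratios scaling the combination kept the calls of Itgb6 and Tlr2.

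Among upstream regulators, 34 of 35 had a row and 29 averaged at least 1 TPM. With UK5099 none was called in limma, where 26 had an unadjusted p-value under 0.05 and the fit of fragments called 1. The share of all genes under that unadjusted limit was not computed, so the 26 are not read as a result about the list. In limma 3 were called lower and 1 higher with butyrate, and 6 lower and 1 higher with the combination. With the combination the fit of fragments called 4 lower and 4 higher, where it called 7.80% of all genes higher. Tnf, the cytokine, was at 214 ± 3.21 TPM in vehicle and fell to 91.8 ± 4.60 TPM under butyrate and 77.1 ± 3.76 TPM under both. Nfkb2 fell from 101 to 41.5 and 32.9 TPM and Relb from 16.3 to 6.99 and 5.80 TPM, both subunits of NF-kB. Socs3, a feedback inhibitor of STAT3 signalling, rose from 7.43 ± 0.459 to 19.7 ± 0.611 and 21.7 ± 0.705 TPM. Il6st, the shared receptor chain of the interleukin 6 family, fell from 22.6 to 9.91 TPM with the combination. With median of ratios scaling, Socs3 alone was called with butyrate, and Nfkb2, Socs3 and Cebpb with the combination. The fit of fragments called 2 with butyrate, both higher (Hnf4a and Socs3), where it called 6.82% of all genes higher. Tnf, Nfkb2 and Relb were thus not called with butyrate under either alternative. Of the 3 interleukin ligands on the list, Il6 and Il1b were at most 0.129 and 0.058 TPM on average in any group, while Il1a had 58.7, 78.6, 30.5 and 33.9 TPM in vehicle, UK5099, butyrate and combination and was not called. In that order, the C/EBP genes Cebpa and Cebpb had 124, 190, 161 and 156 TPM and 101, 151, 114 and 157 TPM. Cebpd had 15.7, 11.2, 17.2 and 13.0 TPM and Cebpg 44.8, 42.0, 31.9 and 30.4 TPM. None of these C/EBP genes was called in the limma fit of the deposited TPM. Cebpb was called higher with the combination by median of ratios scaling and by the fit of fragments.

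**Figure D5:**
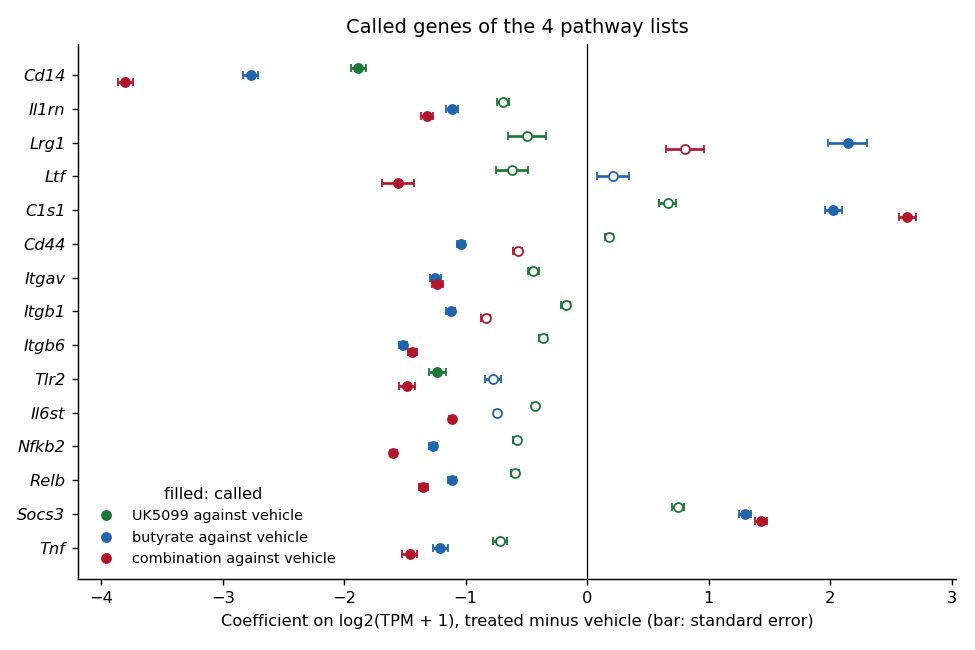
Coefficients on log2(TPM + 1) against vehicle, with standard errors, for the 15 named genes of the 17 called in the lists of other acute-phase proteins, complement, receptors and upstream regulators, with filled points where the gene was called (Rela and Il1r1, called with the combination, are not drawn). Cd14 lies lowest at -3.80 with the combination, and C1s1, Lrg1 and Socs3 lie above 0 with butyrate.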

How the data were processed

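RNA was sequenced from 12 organoid cultures in 4 groups. Per the labels, libraries used ribosomal RNA depletion, mRNA enrichment and strand marking, and the submitters' processing notes name STAR 2.7.9a, Partek and GRCm39. The study's methods for this experiment name another kit, GRCm38 and RSEM, so the build is uncertain, and coordinates are printed as the deposited table gives them, the end being its stop minus 1. The authors deposited TPM per gene, and the table's length equals stop minus start in 100% of genes. Fragments were recovered from the size of the TPM steps. Under 1000 fragments, 75.3% to 76.5% of protein-coding values per sample were whole, with a tolerance of 0.02.

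The fit followed the study's methods, with limma 3.58.1 in R 4.3.3 on log2(TPM + 1) of all 24674 genes and 12 samples, in a model of both drugs and their interaction, and p-values were adjusted by Benjamini and Hochberg. A pseudocount of 1 was set here. Intervals are 95% and use limma's moderated variance. Exonic lengths came from GENCODE M21, matched by gene ID for 23913 genes. The fit and the step finder were tested on simulated data.

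The members and lists were chosen with earlier results of these data known. All members are named. From each of 4 lists, up to 5 called genes with the largest coefficients per treatment and a group mean of at least 1 TPM are named, and for each member above 1 TPM the 3 genes with the most similar pattern. Il6, Il1b, Il1a, the C/EBP genes, Hnf4a, Mt2 and single cell type markers were named after their values were seen. Alternatives were other pseudocounts, a filter, other scalings, a replicate block, a robust prior with a trend, samples left out, other thresholds, fits of the 2 groups compared, voom on fragments and exonic length. Leaving out the first UK5099 and first combination samples together was added after seeing the data. All columns of the table were mapped to samples.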

Additional observations from a re-analysis of the deposited data

Results flagged for a closer look

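For 4 members the effect of UK5099 differed between cultures with and without butyrate, with an interaction in limma at an adjusted p-value under 0.01, as for 13.4% of all genes. The members were chosen with these values known, so the flags are descriptions. The interaction was 2.16 for Hp, whose treated values were near 0. It was 2.44 for Spp1, whose values were near 0 with butyrate and with the combination but not with UK5099 alone. It was 0.71 for C3, which had similar TPM under all 3 treatments, and -0.42 for Cp, which fell further with both drugs. Groups of 3 are too small for a check of single outlying samples.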

How the results depend on the processing

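Of 1044 recomputed coefficients of the 6 members that reached 1 TPM, 988 kept their direction and their side of the thresholds. The number of members called with UK5099 against vehicle and with butyrate added to UK5099 stayed within 1.5 times under all alternatives. At an adjusted p under 0.05 with no limit on the coefficient, 6 members were called with butyrate, 7 with the combination, 4 when UK5099 was added to butyrate, 3 for butyrate against UK5099 and 6 for the interaction. Under the alternatives, up to 13031, 14226, 9050, 11269 and 5335 of all 24674 genes were called in the same order. Nothing is read from the members' counts at that threshold. Butyrate against UK5099 called 2, Spp1 and Orm1, with pseudocounts of 0.1 and 0.01, nuclear protein-coding genes rescaled, voom on fragments and exonic length. The interaction called 1 member with a pseudocount of 0.1 and 0 with 0.01. Orm1 was called higher with butyrate and with the combination with both pseudocounts, the rescaled genes, voom and exonic length, since its values lie near or below the pseudocount of 1.

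The small differences of C3 between treated groups changed sign. For UK5099 added to butyrate, C3 was 0.10 with median of ratios, 0.049 with quantile normalisation, 0.015 with voom, and 0.0048 both without the first combination sample and without the first UK5099 and combination samples. For butyrate added to UK5099, C3 was 0.26 with median of ratios, 0.27 with quantile normalisation, 0.13 with rescaled genes, 0.22 with voom and 0.022 with exonic length. For butyrate against UK5099, C3 was 0.17, 0.22, 0.15, 0.20 and 0.067 in that order. Leaving out 1 sample at a time, the values for UK5099 added to butyrate ran from -0.094 to 0.0048 for C3 and from -0.093 to 0.46 for Spp1, which was lowest without replicate 3 of the combination. The cause was not tested. Leaving out any 1 sample, or the 2 that stood apart, changed no count of members called.

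Same-numbered samples of different groups did not deviate together, with correlations of -0.09 to 0.04 in 18 pairs and 3 of 12 samples closest to their own number. A replicate block left the number of members called as it was in all 7 comparisons, for example 4 with UK5099 and 3 with butyrate. At 0 to 41 fragments a sample, Saa3, Cfb and Orm1 are limited by depth.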
